A study of Mus musculus with 6 samples.

Results

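Mitochondrial fusion and fission genes were compared between muscle cell cultures of Sfpq knockout mice and control mice. The 9 genes were taken by symbol from a fixed list, out of 34655 genes and unnamed transcripts with a value in each library, and all 9 passed the filter on low values: the fusion genes Mfn1, Mfn2 and Opa1, and the fission genes Dnm1l, Fis1, Mff, Mief1, Mief2 and Mtfr1. The 2 groups were differentiated primary myoblasts from skeletal muscle of SfpqSM-KO mice (labelled Sfpq_KO, n = 3 libraries) and of control mice (n = 3). Sfpq is a nuclear RNA-binding protein of transcription and splicing. All mice were male and 1 month old, and all cultures had spent 4 days in 2% horse serum, in which myoblasts fuse into myotubes. For growth, all cultures were given 20% serum and fibroblast growth factor (FGF) at 2.5 ng/mL. The Cre driver, the deleted exons and the genotype of the control mice were not given in the sources used here, and no label ties a library to its own mouse, so p-values measure the spread between libraries, which may be partly technical.

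Mitochondria join and divide continuously, and the balance of these processes sets whether they form a network or separate fragments. Fusion needs a GTPase on each membrane: the mitofusins Mfn1 and Mfn2 tether and merge the outer membranes, and Opa1 merges the inner membranes and holds the cristae in shape. Fission is carried out by the dynamin-related protein encoded by Dnm1l, which is recruited from the cytosol by outer-membrane adaptors and wraps around the organelle to constrict it. In skeletal muscle, mitochondria lie packed between the myofibrils, and loss of mitofusins or of Opa1 in this tissue is known to cause mitochondrial dysfunction and muscle loss.

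Each of the 9 genes was measured by 1 RefSeq transcript accession, so the files give no split between isoforms, and the splice forms of Opa1, Dnm1l and Mff cannot be compared. All 9 have genomic spans under 100 kb, from 4.55 kb for Mief2 to 83.9 kb for Opa1. Promoter windows, which run from 250 bases before to 50 after an annotated start, were found for 8 of the 9 in RefSeq (GRCm38.p6), all but Mtfr1, with 13 windows in all. Lower values in every knockout library than in any control library were found for the 3 fusion genes and for Mief1, Mief2 and Mtfr1. Of these, the windows of the fusion genes alone are shown, with that of Fis1, which was near equal. Each is the first window listed for its gene: Mfn1 at chr3:32529232-32529531 on the plus strand, Mfn2 at chr4:147904860-147905159 on the minus strand, Opa1 at chr16:29579084-29579383 on the plus strand and Fis1 at chr5:136953025-136953324 on the plus strand. Capitals mark matches, on either strand, to short motifs of factors known to act on nuclear genes for mitochondria.
Mfn1: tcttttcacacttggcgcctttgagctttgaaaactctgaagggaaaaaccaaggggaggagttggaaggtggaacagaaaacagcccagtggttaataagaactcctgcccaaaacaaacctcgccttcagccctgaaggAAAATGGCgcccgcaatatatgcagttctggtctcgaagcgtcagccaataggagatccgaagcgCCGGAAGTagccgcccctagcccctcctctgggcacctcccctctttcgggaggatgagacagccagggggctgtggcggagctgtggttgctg
Mfn2: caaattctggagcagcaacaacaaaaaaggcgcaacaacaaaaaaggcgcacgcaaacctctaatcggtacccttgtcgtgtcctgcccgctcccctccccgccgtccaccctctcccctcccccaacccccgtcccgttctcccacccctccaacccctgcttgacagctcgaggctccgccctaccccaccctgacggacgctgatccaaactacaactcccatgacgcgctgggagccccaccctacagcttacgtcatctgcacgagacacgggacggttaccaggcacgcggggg
Opa1: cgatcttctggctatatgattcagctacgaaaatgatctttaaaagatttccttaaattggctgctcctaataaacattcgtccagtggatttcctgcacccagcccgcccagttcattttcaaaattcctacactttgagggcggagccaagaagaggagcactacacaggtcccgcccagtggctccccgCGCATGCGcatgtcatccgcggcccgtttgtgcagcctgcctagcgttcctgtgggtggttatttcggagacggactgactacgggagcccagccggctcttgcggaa
Fis1: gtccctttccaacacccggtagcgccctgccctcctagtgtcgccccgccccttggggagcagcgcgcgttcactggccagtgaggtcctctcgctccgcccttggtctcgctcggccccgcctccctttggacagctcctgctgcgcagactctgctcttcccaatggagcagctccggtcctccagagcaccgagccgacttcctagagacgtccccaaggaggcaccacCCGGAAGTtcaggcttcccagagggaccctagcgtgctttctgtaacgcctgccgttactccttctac
The motifs were those of NRF1 (CGCATGCG, the centre of its longer site), GABP (CCGGAAGT), ERR (TNAAGGTCA), YY1 (AANATGGC) and the cyclic AMP response element (TGACGTCA), chosen with these windows in view. Opa1 alone of the 8 held the NRF1 motif, in 1 of the 13 windows, beside 1.87% of the 32851 windows of all genes. Mfn1, Fis1 and Mief1 held the GABP motif, in 4 of the 13 windows, beside 3.89% of all windows. The YY1 motif was in 4 of the 13 windows, those of Mfn1, Mff and Mief1, beside 6.05% of all windows. The 2 windows of Mff overlap, so a match can be counted in both. No window of the 8 held the ERR motif or the cyclic AMP response element, found in 1.28% and 1.79% of all windows. Mfn2, Dnm1l and Mief2 had none of the 5 motifs in the windows examined. The marked matches of Mfn1 and Fis1 share the GABP letters.

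Sfpq itself stood at 18.3, 19.3 and 14.1 TPM in the knockout libraries and at 48.6, 60.5 and 49.9 TPM in the control libraries, so each library went with its label. TPM is transcripts per 1000000 transcripts, a level per transcript length, so levels of different genes can be set side by side, and it keeps no read depth. The libraries held 12215 to 12483 genes at 1 TPM or more. Differentiated muscle markers (Acta1, Ckm, Myog, Myh3, Mymk and Tnnt3) summed to 47447 to 50620 TPM in knockout and 41990 to 43986 in control. Without Acta1 the other 5 summed to 16207 to 19482 and 17180 to 21170 TPM, which overlapped, and Ckm and Tnnt3 had the opposite sign (log2 differences −0.22 and −0.25). The 2 undifferentiated myoblast markers, Pax7 and Myf5, summed to 28.6 to 52.4 TPM in knockout and 52.7 to 55.8 in control, with log2 differences of −0.38 and −0.68, though each gene's groups overlapped. The defining immune genes Ptprc and Adgre1 were listed at 0 in all 6 libraries, and the 4 adipocyte, 4 endothelial, 4 immune and 3 Schwann and nerve markers each summed to at most 1.51 TPM. The 3 smooth muscle markers, of which Acta2 alone passed the filter, summed to 624 to 833 TPM in knockout and 503 to 1166 in control. Fibroblast markers summed to 153 to 214 TPM in knockout and 196 to 290.0 in control (6 of 6 measured, 2 of 6 above the filter). Most of this sum was Col3a1, whose groups overlapped (log2 difference −0.34). Col1a1 was at 11.1, 24.9 and 11.6 TPM in knockout and 30.3, 35.9 and 75.9 TPM in control, without overlap (log2 difference −1.50). The proliferation genes Mki67, Top2a, Plk1 and Foxm1 summed to 3.02 to 10.3 TPM in knockout and 11.4 to 14.9 in control. The part of these differences in the results below was not tested. Fewer cells of a type and less RNA per cell cannot be told apart in such bulk samples.

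The 9 genes spanned a wide range of levels, with the same order of means in both groups. Fis1, a small outer-membrane protein linked to fission, was the most abundant, at 223 ± 13.0 TPM in control (SD, n = 3), followed by Mfn2 at 174 ± 12.2 TPM. Mff and Mief2 came next at 129 ± 3.45 and 124 ± 8.02 TPM, and their control libraries overlapped. Dnm1l, Mfn1, Mtfr1 and Opa1 lay between 36.5 and 40.2 TPM on average and each overlapped the next in control. Mief1 was the lowest, at 17.7 ± 0.47 TPM. Mfn2 thus stood well above Mfn1, and Mief2 above its paralog Mief1, in every library.

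**Figure D1:**
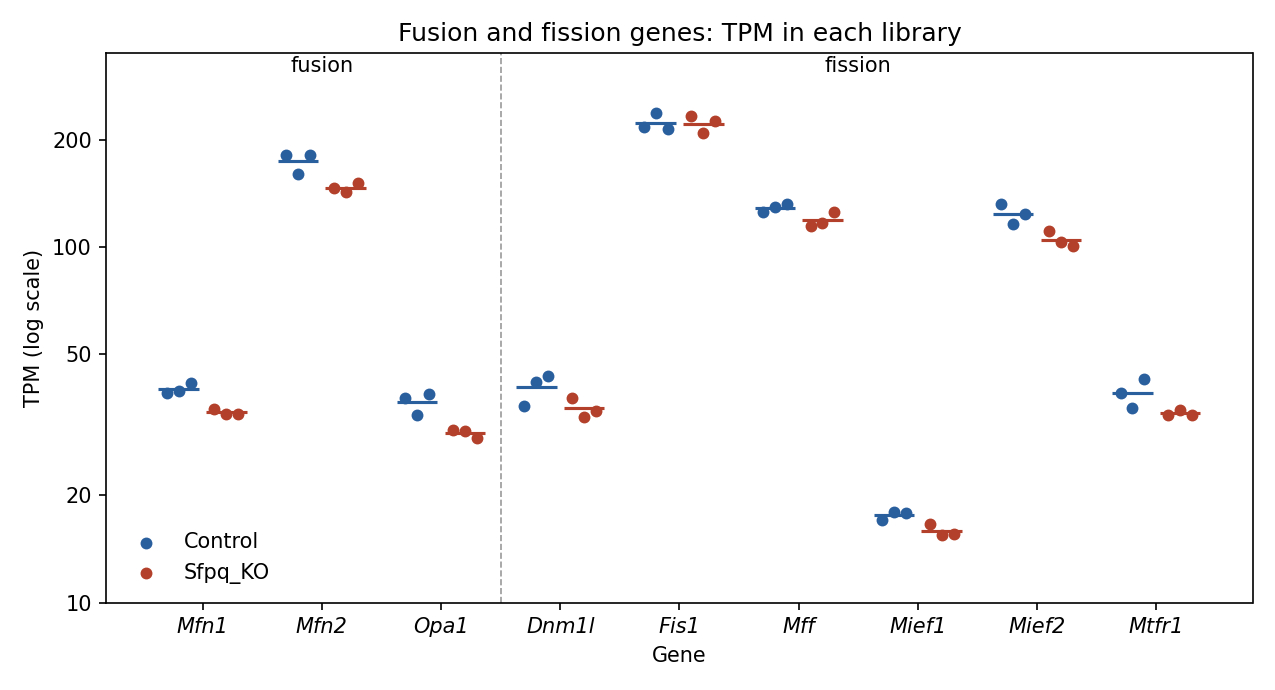
TPM of each gene (log axis) in the 3 control libraries (blue) and the 3 Sfpq_KO libraries (red), with a line at each group's mean. The knockout points of Mfn1, Mfn2, Opa1, Mief1, Mief2 and Mtfr1 lie below all control points of the same gene, while those of Fis1 lie among them.

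The fusion genes were lower in each knockout library than in each control library, with means at 81.9% to 86.0% of control, but none passed the test over all genes. Opa1, the inner-membrane fusion GTPase, had 30.6, 30.3 and 28.9 TPM in the knockout libraries and 37.5, 33.7 and 38.4 TPM in the control libraries. Its knockout mean was 81.9% of the control mean, the log2 difference on the log2(TPM + 1) scale was −0.28 (SE 0.09, 95% interval −0.48 to −0.07), and limma gave an adjusted p of 0.311. This was the largest difference among the 9, and control replicate 2 was the control library nearest to the knockout values.

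Mfn2, the mitofusin that also tethers mitochondria to the endoplasmic reticulum, was measured at 146, 143 and 151 TPM in the knockout libraries against 180.4, 160 and 181 TPM in the controls. The mean was 84.3% of control, with a log2 difference of −0.24 (SE 0.08, interval −0.44 to −0.04, limma adjusted p = 0.341). Control replicate 2 was again the lowest of its group, and the groups did not overlap. Mfn1, its paralog, had the tightest knockout values of the 3, 35.0, 33.9 and 33.9 TPM, against 38.9, 39.3 and 41.5 TPM in control. Its mean was 86.0% of control, and the log2 difference was −0.21 (SE 0.08, interval −0.39 to −0.03, limma adjusted p = 0.349). With 1 library left out, the log2 difference of Mfn1 ran from −0.23 to −0.18. The smallest was without Control replicate 3, which held the highest control value.

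The fission genes ran from Mief2, whose difference was of the size of the fusion genes, to Fis1, which was near equal, and whether fusion and fission genes differed from each other was not tested. Dnm1l, the fission GTPase, gave 37.6, 33.2 and 34.5 TPM in the knockout libraries and 35.8, 41.6 and 43.3 TPM in the control libraries. The groups overlapped, because control replicate 1 fell among the knockout values. The log2 difference was −0.19 (SE 0.10, interval −0.43 to 0.06, limma adjusted p = 0.499).

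Mief2, which encodes an outer-membrane receptor for this GTPase, had knockout values of 110.3, 103 and 101 TPM and control values of 132, 116 and 124 TPM, with no overlap. The mean was 84.6% of control and the log2 difference −0.24 (SE 0.08, interval −0.44 to −0.04, limma adjusted p = 0.346). Mief1, which encodes the paralogous receptor, was at 16.6, 15.5 and 15.6 TPM against 17.1, 17.96 and 17.9 TPM. These groups did not overlap either, although the gap was small, and the log2 difference was −0.14 (SE 0.08, limma adjusted p = 0.536). The span of Mief1 overlaps a further protein-coding gene on the same strand in GENCODE, which makes the level of Mief1 uncertain.

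Mff, the tail-anchored adaptor for the fission GTPase, had knockout values of 114, 116 and 125 TPM and control values of 125, 129 and 132 TPM. Knockout replicate 3 lay just above the lowest control library, so the groups overlapped narrowly (log2 difference −0.12, SE 0.08, limma adjusted p = 0.564). Fis1 stood at 232, 208 and 225 TPM against 217, 238 and 214 TPM. The groups were interleaved, with a log2 difference of −0.01 (SE 0.09, interval −0.21 to 0.20, limma adjusted p = 0.977), and the sign changed to 0.07 after median-of-ratios scaling and to 0.02 after quantile normalization. Mtfr1, a mitochondrial fission regulator, was at 33.7, 34.8 and 33.7 TPM against 38.8, 35.1 and 42.5 TPM. Control replicate 2 was only just above the knockout libraries, and the control values varied more (coefficient of variation 9.54%) than those of knockout (1.78%). The log2 difference of Mtfr1 was −0.18 (SE 0.09, limma adjusted p = 0.482).

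**Figure D2:**
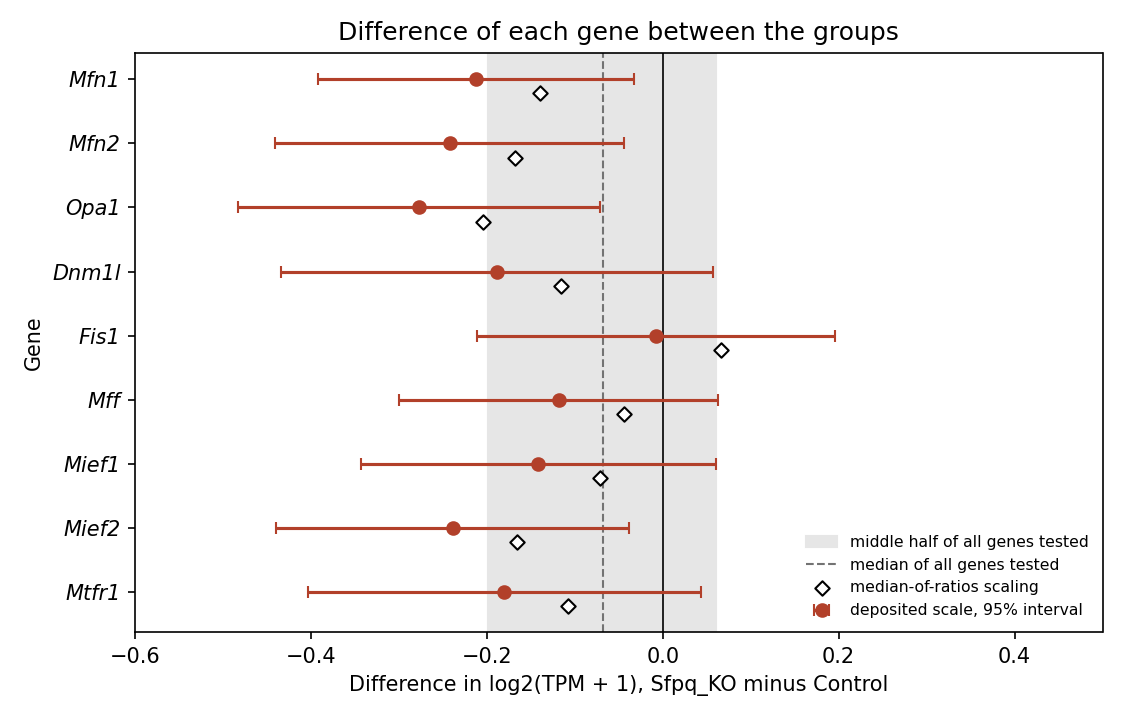
Difference of each gene in log2(TPM + 1), Sfpq_KO minus Control, on the deposited scale (red, with limma's 95% interval) and after median-of-ratios scaling (white diamonds). The grey band holds the middle part of all genes tested, from the first to the third quartile, and the dashed line their median of −0.07; Opa1, Mfn2, Mief2 and Mfn1 have intervals below 0.

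As a set, 9 of 9 genes had lower values in knockout, with a median log2 difference of −0.19, where 64.5% of the 12460 genes tested were lower and the median of all was −0.07. The test called 0 of the 9 (limma with Benjamini-Hochberg adjustment at 0.05), as it called 0.0% of all genes in either direction. Sfpq itself, at a log2 difference of −1.57, also missed the threshold (limma adjusted p = 0.053), and no gene had a smaller adjusted p. The lack of calls among the 9 therefore says little about differences of their size. At an unadjusted p under 0.05, 4 of 9 were lower (Opa1, Mfn2, Mief2 and Mfn1) beside 9.62% of all genes, and 0 were higher beside 2.68%. The groups did not overlap in 6 of 9, all of them lower in knockout, beside 15.3% of all genes lower and 4.27% higher. Members of 1 process can vary together, so these counts are not those of 9 independent genes. Split by role, the median was −0.24 over the 3 fusion genes and −0.16 over the 6 fission genes. The lowest bound of the 9 intervals was −0.48, for Opa1, and the highest was 0.20, for Fis1, so differences beyond these sizes lie outside all 9 intervals.

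The counts depended on the scale and on single libraries. After median-of-ratios scaling, 8 of 9 were lower and 1, Fis1, was higher, beside 50.2% and 49.8% of all genes. Mfn1 and Opa1 still had groups that did not overlap, both lower, beside 9.12% of all genes lower and 9.33% higher. At an unadjusted p under 0.05 in limma, 0 of 9 were lower and 0 higher on that scale, beside 5.69% and 5.77% of all genes. On the deposited scale 4 of the 9 were under 0.05, all lower, beside 1199 of all 12460 genes lower. That count became 2 without Sfpq_KO replicate 1 (761 of all genes lower). It was 1 without Sfpq_KO replicate 2 (1240 of all) and 1 without Sfpq_KO replicate 3 (793). It was 0 without Control replicate 3 (684) and 5 without Control replicate 2 (1294).

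**Figure D3:**
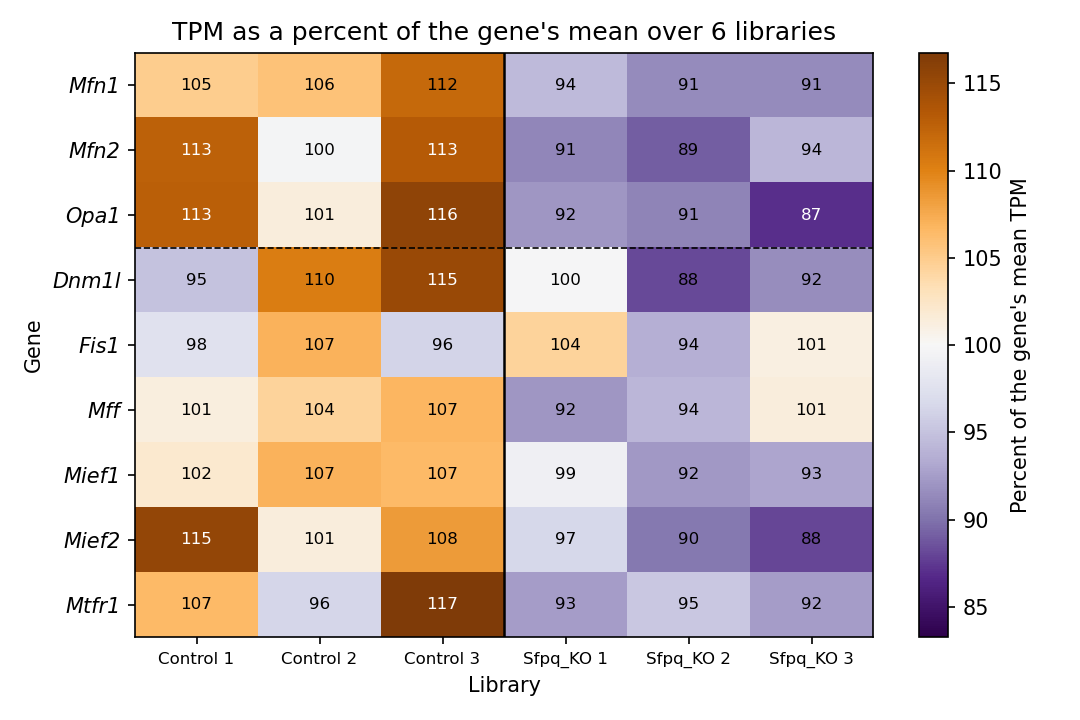
TPM of each gene in each library as a percent of that gene's own mean over the 6 libraries; the solid line parts Control from Sfpq_KO and the dashed line fusion from fission genes. Opa1 runs from 87% to 116%, and Fis1 from 94% to 107% without a split by group.

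The libraries did not rank alike for all genes. Opa1, Mfn2, Mief2 and Mtfr1 had their lowest control value in replicate 2, at 96% to 101% of each gene's own mean over the 6 libraries. The other 5 did not share this. Dnm1l, Mfn1, Mff and Mief1 had their lowest control value in replicate 1 (95% to 105%), and Fis1 had it in replicate 3 (96%). The pattern over the 6 libraries was compared as the root mean square difference between log2 values centred on each gene's mean. By this measure the closest of the 36 pairs were Mfn1 with Mief1 (0.046), Opa1 with Mief2 (0.048) and Mfn2 with Opa1 (0.049), and the most distant was Opa1 with Fis1 (0.178). Mfn1 and Mfn2 stood at 0.063 and the receptor paralogs Mief1 and Mief2 at 0.089. These distances are descriptions over 6 libraries, and all genes of a library share its scaling.

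Outside the 9, the closest genes to Mfn2 among 9575 with a mean TPM of at least 5 were Lrrfip2 (0.018), Mdh2 (0.024) and Ptges2 (0.034), where the median gene lay at 0.196. Mdh2, the mitochondrial malate dehydrogenase, had a mean of 839 ± 31.6 TPM in the knockout and 995 ± 50.1 TPM in the control group (SD, n = 3). Nearest to Opa1 were the peroxisome biogenesis gene Pex2 (0.031), Ap4b1 (0.033) and Ecsit (0.035), and Ecsit was at 66.8 ± 0.72 against 82.3 ± 5.16 TPM. Nearest to Dnm1l were Klhl24 (0.028), Cux1 (0.037) and Mkks (0.037). Like Mfn2 and Opa1, the 6 genes nearest to them had their lowest control value in replicate 2, and the 3 nearest to Dnm1l had it in replicate 1, as the measure favours.

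Ratios within a library do not change with its scaling. The summed TPM of the fusion genes over that of the fission genes was 0.389, 0.405 and 0.400 in knockout and 0.454, 0.403 and 0.455 in control. Control replicate 2 lay among the knockout libraries, and the means were 0.398 ± 0.008 and 0.437 ± 0.030 (SD, n = 3). Fis1 and Mfn2 are the most abundant genes of each sum, and the ratio of Mfn2 to Fis1 was 0.629, 0.685 and 0.671 in knockout against 0.832, 0.671 and 0.846 in control. Without Fis1 in the fission sum, the ratio was 0.683 ± 0.006 in knockout and 0.716 ± 0.027 in control, and the groups again overlapped. The ratio of Opa1 to Dnm1l was 0.814, 0.912 and 0.838 against 1.05, 0.810 and 0.887, where only Control replicate 1 stood above all knockout libraries. Without that library the difference of the means turned from −0.061 to 0.0057. Mfn1 to Mfn2 was 0.240, 0.238 and 0.225 against 0.216, 0.246 and 0.229, with a mean difference of 0.0039 that turned to −0.0034 without Control replicate 1. None of these ratios parted the groups, and as sums or quotients of the chosen genes they were not tested.

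**Figure D4:**
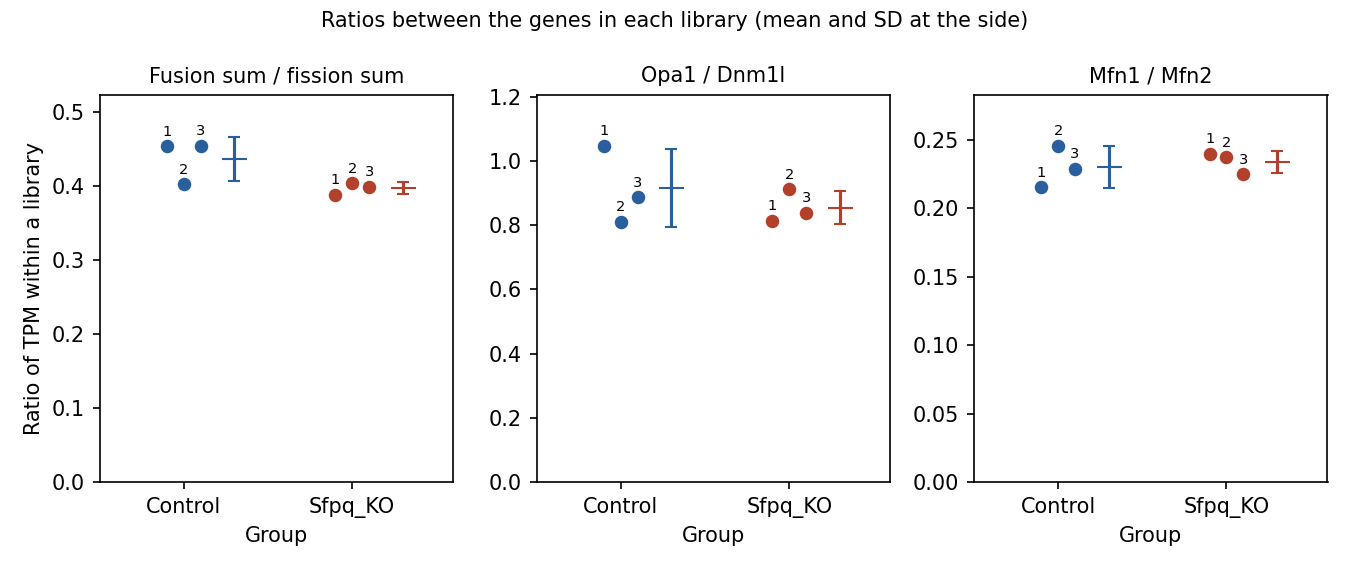
Ratio of TPM within each library for the fusion sum over the fission sum, Opa1 over Dnm1l and Mfn1 over Mfn2, with replicate numbers above the points and the mean and SD of each group beside them; all axes start at 0. In each panel at least 1 control library lies within the range of the knockout libraries.

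The other genes that act on fusion and fission were taken from 8 lists with 80 genes, of which 76 were tested. None of the 76 passed over all genes (limma adjusted p under 0.05), and 18 were lower and 0 higher at an unadjusted p under 0.05, beside 9.62% and 2.68% of all genes. The median log2 difference was −0.12. The groups did not overlap in 22 lower and 1 higher of the 76, beside 15.3% and 4.27% of all genes. The lists that act on the inner membrane and on the outer membrane during fusion had medians of −0.07 (8 tested, 6 lower) and −0.10 (8 tested, 7 lower), near the −0.07 of all genes. Afg3l2, a subunit of a matrix protease that limits the activation of the Opa1-cleaving protease Oma1, averaged 84.7 ± 8.60 TPM in the knockout and 107 ± 13.0 TPM in the control libraries (log2 difference −0.33, SE 0.12, limma adjusted p = 0.371). Oma1 itself was at 16.1 ± 0.80 against 18.1 ± 1.54 TPM, and the inner-membrane scaffold Phb2 at 257 ± 27.4 against 299 ± 31.7 TPM. On the outer membrane, the carrier-like Mtch2 was at 84.6 ± 1.71 against 97.8 ± 2.26 TPM without overlap, the ubiquitin ligase Mul1 at 37.9 ± 1.09 against 42.3 ± 1.80 TPM, and the mitoguardin gene Miga2 at 19.2 ± 1.12 against 21.6 ± 2.63 TPM.

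Among regulators of fission, 6 of 12 tested were lower and the median was −0.05, or −0.13 without Control replicate 1. Ppp3ca, a catalytic subunit of calcineurin, the phosphatase that activates the Dnm1l product, had knockout values of 37.8, 32.5 and 34.7 TPM and control values of 54.4, 45.9 and 46.6 TPM. The groups were well apart, with a log2 difference of −0.47 (SE 0.10, limma adjusted p = 0.184). Mtfp1, an inner-membrane protein of fission, was at 17.4 ± 3.38 against 23.9 ± 3.91 TPM, and Akap1, which anchors the protein kinase that inhibits the same GTPase, at 49.3 ± 5.74 against 59.7 ± 4.33 TPM. The groups of Akap1 overlapped (limma adjusted p = 0.387). Thus genes for an activator and for an inhibitory anchor of Dnm1l's product both had lower means in knockout. Neither passed the test, and of this pair Ppp3ca alone had groups that were apart. The groups of Mtfp1 were apart too, but narrowly, with 20.8 TPM in Sfpq_KO replicate 2 and 20.99 TPM in Control replicate 2 (limma adjusted p = 0.385).

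The cristae organising list, which holds the partners of Opa1 in shaping the inner membrane, had 9 of 11 lower and a median of −0.13, which was −0.07 without Control replicate 3 and −0.20 without Sfpq_KO replicate 3. Immt, the core of the MICOS complex at cristae junctions, was at 131, 141 and 168 TPM in knockout against 178, 212 and 215 TPM in control (log2 difference −0.46, SE 0.12, limma adjusted p = 0.266). Its subunit partners Chchd3 (208 ± 17.2 against 271 ± 12.6 TPM) and Apoo (44.3 ± 5.47 against 57.5 ± 6.54 TPM) also had groups that did not overlap. Immt, Chchd3 and Apoo were named for the smallest p in the list, which favours such groups. Over the list, 4 of 11 had lower values without overlap, beside 15.3% of all genes. Chchd6, another subunit of that complex, had the opposite sign, at 32.3 ± 3.05 against 28.7 ± 1.62 TPM, and was picked after its values were seen. For mitochondrial transport, 4 of 8 were lower (median −0.05), among them the kinesin adaptor Trak1 at 74.0 ± 11.0 against 94.7 ± 1.14 TPM. Kifbp, at 49.9 ± 5.09 against 44.1 ± 2.51 TPM, and Armcx3, at 45.3 ± 4.58 against 41.2 ± 3.14 TPM, had higher means in knockout, and only the former had groups that did not overlap.

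In mitophagy, which removes fragments made by fission, 7 of 10 were lower with a median of −0.10, or −0.01 without Control replicate 2. Pink1, a kinase that marks damaged mitochondria, was near equal at 414 ± 43.9 and 414 ± 21.9 TPM, picked after its values were seen. Bnip3 (198 ± 90.7 against 320 ± 128 TPM) and Bnip3l (54.97 ± 13.4 against 72.0 ± 16.7 TPM), mitophagy receptors, varied widely within each group, and their groups overlapped. Bcl2l13, another receptor, was at 45.98 ± 5.88 against 51.9 ± 6.64 TPM, and its groups overlapped too.

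Among listed genes of the outer membrane and matrix, 10 of 11 had a value and 8 were lower. The median was −0.21, close to the −0.19 of the 9 fusion and fission genes. These are RNA levels, and mitochondrial content itself was not measured. The others, Tomm20 and Tomm22, picked after their values were seen, were near equal, each with a log2 difference of 0.03. The matrix chaperonin Hspd1 was at 94.1 ± 2.26 against 113 ± 7.72 TPM, the import pore Tomm40 at 86.1 ± 4.65 against 102 ± 1.58 TPM and the channel Vdac3 at 172 ± 6.50 against 225 ± 34.2 TPM. Whether the fusion genes differed from mitochondrial genes at large was not tested.

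Transcriptional regulators of mitochondrial genes, some of which are known to act on Mfn2, were lower in 9 of 9 with a median of −0.26, beside 64.5% of all genes lower. The count was 6 of 9 with median-of-ratios scaling, with quantile normalization and without Control replicate 2. The largest differences were in Esrrb (7.67, 4.04 and 6.77 TPM in knockout against 28.02, 17.6 and 31.3 TPM in control), Esrrg (1.37, 1.65 and 1.64 against 3.84, 2.85 and 4.44 TPM) and the coactivator Ppargc1b (5.87, 4.99 and 6.79 against 8.70, 8.70 and 9.47 TPM), whose limma adjusted p values were 0.104, 0.153 and 0.221. All 3 had groups that did not overlap, but they were named for the smallest p in the list, which favours such groups. Over the list, 5 of 9 had lower values without overlap, beside 15.3% of all genes. The factors named with the promoter motifs, taken for that reason and not by their p, were near equal for Nrf1 (12.8 ± 0.93 and 12.9 ± 1.97 TPM), Gabpa (19.1 ± 1.38 and 20.0 ± 1.63 TPM) and Yy1 (55.3 ± 2.21 and 56.3 ± 2.32 TPM).

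Of the 76 genes, 10 have spans of 100 kb or more, and 7 of these were lower at an unadjusted p under 0.05, with a median of −0.41: Ppp3ca, Chchd3, Trak1, Ppargc1a, Ppargc1b, Esrrb and Esrrg. The last 4 are among the transcriptional regulators counted above. Over all 1415 tested genes of that span, 20.5% were lower at that p and the median was −0.14. Of the 66 shorter genes, 11 were under that p, with a median of −0.11, beside 8.30% and −0.06 over all 10540 tested genes of shorter span. The 9 fusion and fission genes all belong to the shorter class, so their differences, −0.28 to −0.01, could not fall outside its range. Their median was −0.188, beside −0.061 for the class, whose lower quartile was −0.185. Opa1, Mfn2, Mief2, Mfn1 and Dnm1l lay below that quartile, and Mtfr1, Mief1, Mff and Fis1 above it. The groups did not overlap, with lower values in knockout, in 6 of the 9, beside 14.0% of the class. Whether the 9 differed from their span class was not tested.

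**Figure D5:**
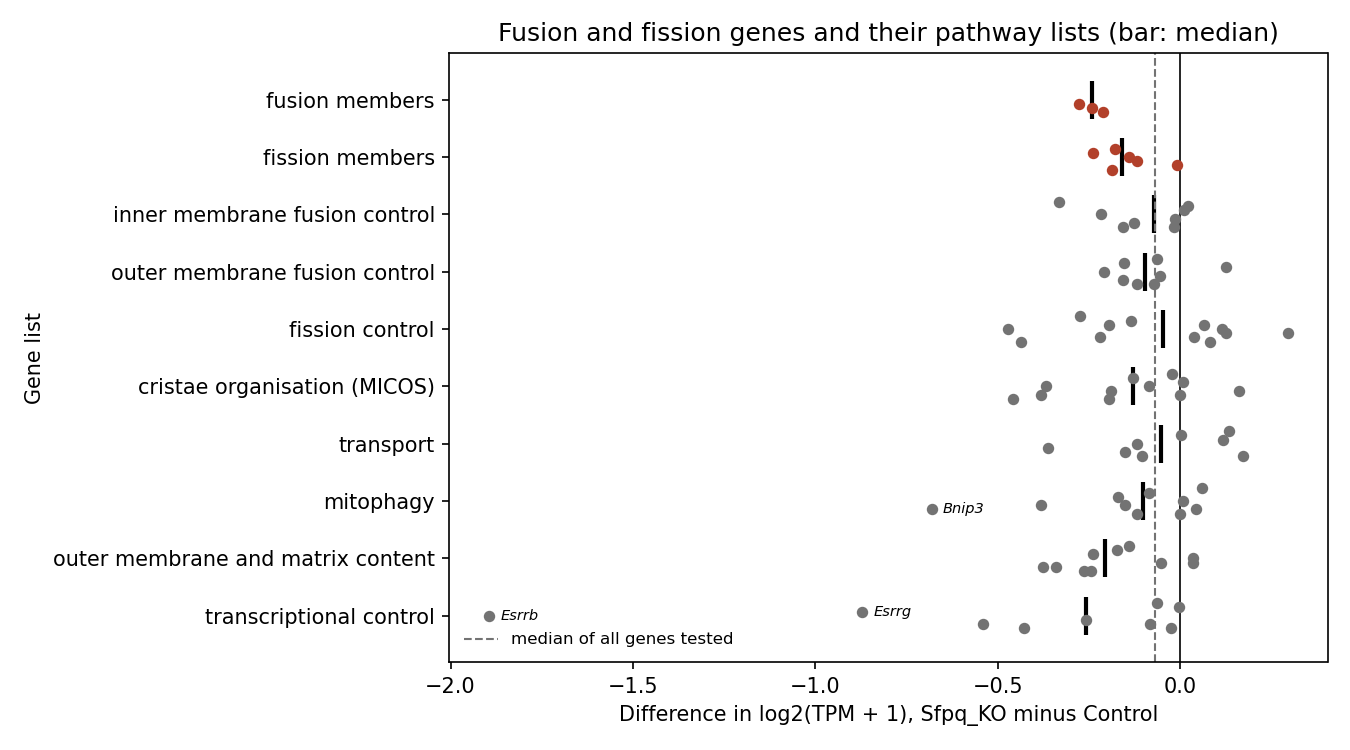
Difference in log2(TPM + 1), Sfpq_KO minus Control, of each tested gene (points) in the fusion and fission genes (red) and in 8 pathway lists (grey), with a bar at each list's median and a dashed line at the median of all genes tested. The transcriptional regulators have the lowest median (−0.26), and the named points (Esrrb, Esrrg and Bnip3) lie farthest to the left.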

How the data were processed

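PolyA RNA of 6 primary myoblast cultures, 3 Sfpq knockout and 3 control by their titles, was sequenced on an Ion Proton. The authors deposited TPM, 1 value per RefSeq accession and library, summing to 1000000. Reads were aligned with STAR 2.4.1d and mm10 was the genome, per the submitters' processing notes. How reads were counted, on which annotation and with what strand setting, was not given in the sources used here. TPM keeps no depth, so no count model and no counting interval was used.

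Of 34671 accessions, 30824 were named through a RefSeq table of GRCm38.p6 and 103 through GENCODE. The other 3744 (1.18% to 1.27% of TPM) kept their accession. TPM was summed per symbol. The 12460 genes at 1 TPM or more in at least 3 libraries were put on the log2(TPM + 1) scale and tested in limma 3.58.1 (R 4.3.3), with intensity trend, no block, a 2-sided moderated test and Benjamini-Hochberg adjustment over all genes at 0.05. A fit over 12464 accessions gave the same counts of calls. Differences are on the log2(TPM + 1) scale, which understates changes of low genes. Median-of-ratios factors ran from 0.961 to 1.07. Python 3.11.15, pandas 2.3.3 and matplotlib 3.10.9 were used for joining and plots. The members, lists and tests were chosen with earlier results of these data known. Named are the 9 genes, Sfpq, the 3 smallest p in each list and the 3 nearest patterns of Mfn2, Opa1 and Dnm1l, plus the listed factors of the searched motifs and genes said to be picked later. A gene of the mitophagy list is not reported here and is left out of that list's counts.

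On simulated data for this comparison, over 12460 genes with 100 changed at each size, the test recovered 78.0% of log2 changes of 1 and 98.0% of those of 2, with 13 false calls. The noise was drawn independently for each gene, without deviations shared within a library, so recovery in the real libraries may differ. The differences of the 9 genes are smaller than those sizes, and recovery at their size was not simulated. Alternatives covered pseudocounts of 0.1 and 5, a mean TPM of at least 5 or no filter, median-of-ratios and quantile scaling, robust moderation or no trend in limma, an adjusted p under 0.1, a replicate block, leaving out each library and the accession with the highest mean TPM alone.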

Additional observations from a re-analysis of the deposited data

How the results depend on the processing

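None of the 9 genes passed an adjusted p of 0.05 in limma under any of the 17 alternatives, where the smallest adjusted p was 0.194 (Opa1, without Control replicate 2), and 8 of the 9 were lower in knockout in all 17. Fis1 was the exception: its log2 difference turned to 0.066 with median-of-ratios scaling, 0.021 with quantile normalization, 0.037 without Sfpq_KO replicate 2 and 0.040 without Control replicate 2, and ran from −0.041 to 0.040 with 1 library left out. The median of the 9 was −0.12 with median-of-ratios scaling and −0.13 with quantile normalization, and −0.23 to −0.13 with 1 library left out. The ratio difference of Mfn1 to Mfn2 ran from −0.0034 to 0.012 and that of Opa1 to Dnm1l from −0.11 to 0.0057 with 1 library left out. Over all genes, and equally over accessions, limma called 2 higher and 11 lower with a pseudocount of 5, 1 and 6 at a mean TPM of at least 5, 1 and 1 without trend, and 7 and 21 at an adjusted p under 0.1. Sfpq passed in 3 of these: at −1.39 with a pseudocount of 5, and at −1.57 both at a mean TPM of at least 5 and at the looser threshold. With median-of-ratios scaling the medians of 3 pathway lists turned above 0: inner membrane fusion control 0.0010, fission control 0.025 and transport 0.015. Transport was also at 0.031 with quantile normalization and from −0.082 to 0.0013 with 1 library left out, the latter without Control replicate 3. The split of genes at an unadjusted p under 0.05, 334 higher and 1199 lower, became 719 and 709 with median-of-ratios scaling; the cause was not tested. The replicate numbers share only a number: deviations of same-numbered libraries correlated at −0.26, −0.25 and 0.05 across genes, and none of the 3 knockout libraries correlated best with the control library of its own number. With the replicate block, 0 genes were called, as without it, and Opa1 kept its difference of −0.28. At an unadjusted p under 0.05 in limma with that block, 3 of the 9 were lower, beside 836 of all 12460 genes. TPM keeps no depth, so what depth limits could not be computed.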
